A study of Arabidopsis thaliana with 9 samples.

Results

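Roots fixed in flight right after microgravity, the first-actuated roots, were compared with roots fixed on the ground. The comparison used 6 of the study's 9 arrays, 3 titled First-Actuated and 3 titled Ground Control, and covered 16550 genes, each read from its brightest single-gene probe set. The other 3 arrays, titled Last-Actuated, entered the fit for its estimate of the spread. All roots came from Arabidopsis thaliana seedlings of the Wassilewskija cultivar, 10 days old and grown in 24 h light. Every group, the ground group included, carried the transgene pCaMV35S:14-3-3κ:GFP, a green fluorescent fusion of a 14-3-3 adaptor protein driven by a viral promoter that is active in most cell types. Wild-type roots were not analysed here, nor was a probe set for the transgene's 14-3-3 gene.

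The seedlings stood in Kennedy Space Center Fixation Tubes loaded with RNAlater, a salt solution that stops changes in RNA. The jet, an F-104 Starfighter on its second flight, climbed at about 4 g for some 30 s and then gave about 10 s of microgravity, followed by a pull-up at raised g. The first-actuated tube was opened to fixative at once after microgravity, the last-actuated tube after a further period of level flight, and the ground tube was held by a person on the ground and actuated during the flight. Flight tubes were carried in pockets of a flight suit. The 3 replicates of each group shared 1 tube. A tube's own effect and that of its condition cannot be told apart, and p-values measure only the spread between root samples of a tube. In bulk RNA, fewer cells of a type and less RNA per cell cannot be told apart.

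Plant cells read gravity through dense starch grains in the root cap, and acceleration, vibration, pressure and warmth all reach them through calcium, reactive oxygen and hormone signals. A cell under heat or protein-damaging stress switches on small heat shock proteins, which hold unfolded proteins, and co-chaperones that pass these to the HSP70 and HSP90 machines. Proteins that cannot be refolded are tagged with ubiquitin and pulled apart by the CDC48 ATPase and the proteasome.

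In this comparison 776 genes passed limma's test at a Benjamini-Hochberg adjusted p under 0.05, which is 4.69% of the 16550 tested. Of these 499 rose (3.02%) and 277 fell (1.67%). At an unadjusted p under 0.05 there were 2791. Among the called genes the rises were larger. They had a median of 0.93 on the log2 scale and reached 4.14, while the falls had a median size of 0.76 and reached 2.88. A rise of at least 2 on this scale was called for 29 genes and a fall of that size for 4. The size of the largest called fall depended on ground array 2, since without it ICL, described further on, was called with a fall of 6.07. The medians and the counts of at least 2 were not compared without that array. The median log2 difference over all genes was 0.00983.

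**Figure D1:**
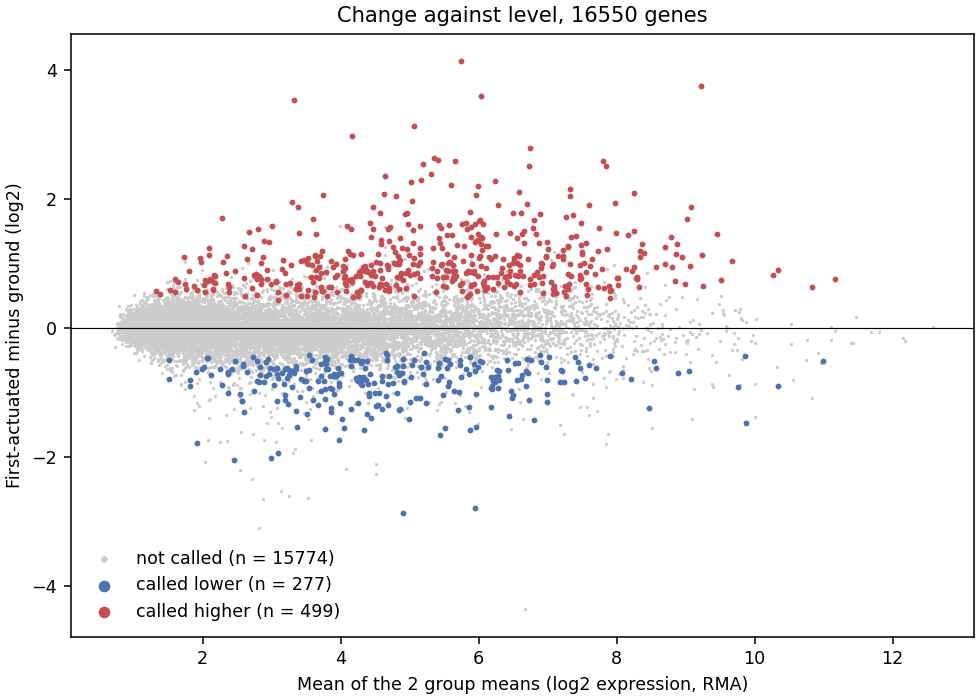
Each point is 1 of 16550 genes, with the mean of the ground and first-actuated group means (log2 expression) on the x axis and the log2 difference, first-actuated minus ground, on the y axis. The 499 genes called higher reach 4.14 and the 277 called lower reach -2.88, and grey points that lie below -2 are genes whose ground arrays differed widely among themselves.

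Calls were far more frequent among bright genes. In the quartile of genes with the lowest mean level, 2 of 4138 rose and 0 fell, whereas in the highest quartile 9.18% rose and 4.3% fell. The call therefore says little about genes expressed below a log2 level of 1.41, the border of the lowest quartile. The shares of all genes set beside gene lists below are not matched for level. Across the 5 nuclear chromosomes the share that rose ran from 2.44% on chromosome 3 to 3.7% on chromosome 4, and the share that fell from 1.58% to 1.73%. Of 63 genes of the plastid genome, 0 were called higher and 7 lower. All 63 lay above the median of gene means, where calls were more frequent. In fits without 1 array the count called lower ran from 1 to 52.

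The arrays were not equally spread. The median SD over genes was 0.163 on the ground, 0.124 in first-actuated and 0.148 in last-actuated roots. In 3047 genes, 18.4% of those tested, all first-actuated arrays lay on 1 side of all ground arrays, and the 776 called genes were all among them. For 443 of the 776, ground array 2 was the ground array nearest to the first-actuated ones. The count of calls was 1253 without ground array 2 and 449 without ground array 3. It was 423, 422 and 384 without first-actuated arrays 1, 2 and 3 in turn. In the fits that left out 1 of the 9 arrays, 244 of the rises and 83 of the falls were called every time. The genes described first are the 15 largest of each.

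**Figure D2:**
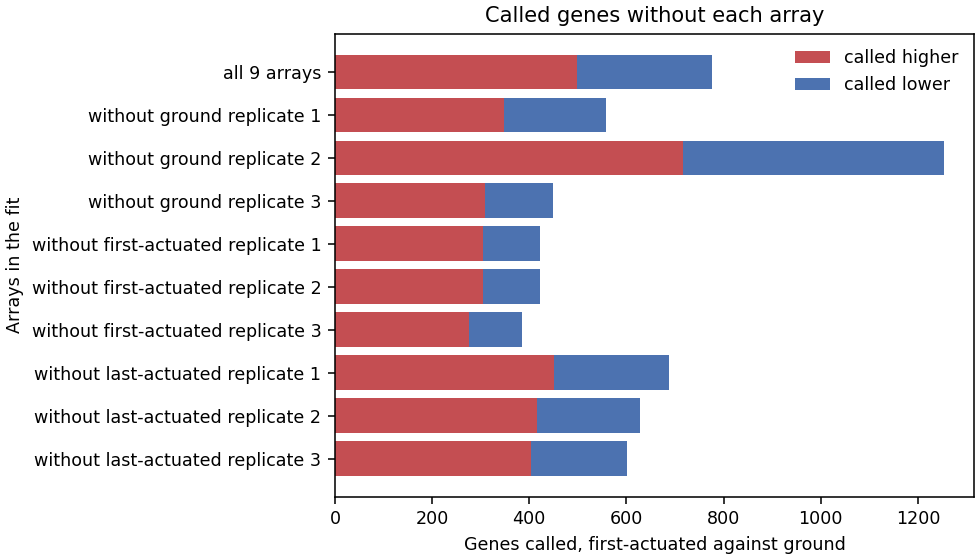
Bars give the number of genes called in the first-actuated against ground comparison with all 9 arrays and without each array in turn, split into genes called higher and lower. The count is 776 with all arrays, 1253 without ground array 2 and 384 without first-actuated array 3.

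The steepest rise was that of AT1G44414, whose function is not described here. It read 3.95, 3.77 and 3.33 on the 3 ground arrays and 7.82, 7.85 and 7.79 on the first-actuated ones, a 17.6-fold rise (4.14 ± 0.16 SE on the log2 scale, limma, adjusted p = 1.38e-06). The groups were far apart, and the last-actuated arrays lay between them at 6.38 to 6.68. AT1G72760, which encodes a predicted protein kinase, was close to the array's floor on the ground at 1.71, 1.48 and 1.48 and stood at 4.88, 5.28 and 5.10 after microgravity. The groups did not overlap (adjusted p = 3.49e-06), and since no detection calls were used no fold is given against those ground values. AT5G07330 rose 12.1-fold, from a ground range of 3.90 to 4.54 to a range of 7.62 to 7.99.

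Enzymes and membrane proteins were also among the 15 largest rises. AT2G36690 encodes an oxygenase of the family that uses 2-oxoglutarate and iron, and members of that family build and break down hormones and defence compounds. Its ground values were 1.92, 3.13 and 3.01, against 5.69, 5.61 and 5.67 in first-actuated roots (7.85-fold, adjusted p = 0.000193). In last-actuated roots it was at 2.51, 2.71 and 2.47, inside the ground range, and the 2 flight tubes differed by 3.09 (adjusted p = 0.00135). AT1G52870, of a family of peroxisomal and mitochondrial membrane proteins, rose 8.7-fold. AT1G50110, a branched-chain amino acid aminotransferase of the leucine, isoleucine and valine pathway, rose from 4.66, 4.21 and 4.24 to 6.94, 6.94 and 6.98. AT1G73740, of a glycosyltransferase family, rose 5.24-fold.

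**Figure D3:**
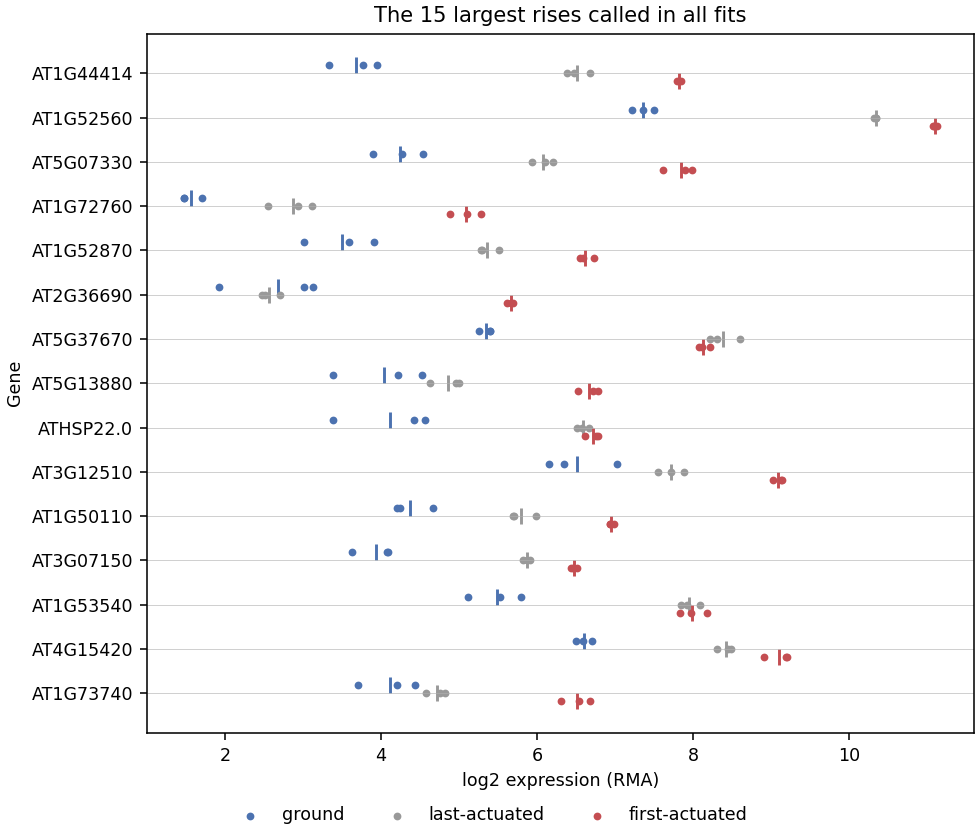
Log2 expression on each of the 9 arrays for the 15 largest rises called in all 9 fits that left out 1 array, with blue for ground, grey for last-actuated and red for first-actuated arrays, and a vertical tick at each group mean. In every one of the 15 genes the first-actuated points lie above the ground points, and for AT5G37670, ATHSP22.0 and AT1G53540 the grey and red points are close together.

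Protein folding genes held several of the largest rises. Of 11 measured small heat shock protein genes, 10 rose and 1 fell, where 3.02% and 1.67% of all genes did, and the list's median was 1.54. AT1G52560 read 7.50, 7.36 and 7.21 on the ground and 11.09, 11.12 and 11.08 in first-actuated roots. ATHSP22.0, whose product works in the endoplasmic reticulum, was at 4.42, 3.39 and 4.56 on the ground and 6.61, 6.76 and 6.78 after microgravity, a 6.04-fold rise with no overlap of the groups. Without 1 array in turn, 7 to 10 of the 11 rose. Of the 11, 10 lay above the median of gene means, where calls were more frequent. For part of this list the difference between the flight tubes was not called. AT5G37670 differed between them by -0.25 (adjusted p = 0.416) and AT1G53540 by 0.04 (adjusted p = 0.954), whereas AT1G52560 was higher in the first-actuated tube by 0.76 (adjusted p = 0.00605).

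The partners of the large chaperones had smaller changes. Among 9 measured HSP70 and co-chaperone genes, 5 rose and 0 fell, where 3.02% and 1.67% of all genes did, and the median was 0.64. No HSP90 gene was among the 9, and all 9 lay above the median of gene means, where calls were more frequent. Fes1A, which keeps HSP70 at work in the heat, moved from 7.59, 8.00 and 7.76 to 8.80, 8.88 and 8.97, a rise of 1.10 ± 0.12 SE. AT5G48570, an immunophilin that binds HSP90, rose by 1.03 to a level above 10. The adaptor Hop3, which joins HSP70 to HSP90, rose by 0.91. Its relative Hop2, named after its values were seen, rose by 0.64, a call lost in 4 of the 9 fits that left out 1 array, and Hop1 differed by -0.04 (adjusted p = 0.964). AT3G09440 and Hsp70-2, both HSP70 genes, differed by 0.21 and -0.16 with adjusted p of 0.414 and 0.769. For the 5 genes of the list that rose, the flight tubes differed by -0.14 to 0.26 with no call between them.

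Single genes known from protein removal rose. AT4G15420, of the UFD1 family that brings tagged proteins to CDC48, read 6.50, 6.70 and 6.59 on the ground and 8.91, 9.20 and 9.19 in first-actuated roots (5.66-fold, adjusted p = 3.49e-06). SAY1, a UBX protein of the same ATPase system that was named here after its values were seen, rose from 6.00, 6.10 and 5.93 to 7.68, 7.90 and 7.73. DER1, a derlin that helps pull misfolded proteins out of the endoplasmic reticulum, rose 2.78-fold. It was the 1 called gene of 7 measured for the unfolded protein response of that compartment, where 3.02% of all genes rose. Between the flight tubes, AT4G15420 and DER1 were higher in the first-actuated one by 0.68 and 0.74 (adjusted p = 0.0172 and 0.00911). SAY1 differed between them by 0.38 (adjusted p = 0.123). The U-box ubiquitin ligases PUB24 and PUB23, which damp immune signalling, rose by 1.46 and 1.32. The call of PUB23 was lost in 7 of the 9 fits that left out 1 array, at adjusted p of 0.0548 to 0.117. Of the 20 measured ubiquitin ligases in that list 2 rose and 1 fell, against 3.02% and 1.67% of all genes, and 2 measured proteasome subunits had no call.

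Other folding genes outside the rule for named genes were chosen after their values were seen. SQN, a cyclophilin that works with HSP90 and supports microRNA function, rose from 3.99, 3.88 and 3.83 to 4.98, 5.25 and 5.55. AT1G71000, a gene of the DnaJ family of HSP70 partners, rose by 2.26 ± 0.32 SE, with ground values spread from 3.21 to 4.80. Both were called in all 9 fits that left out 1 array. HSA32 and AT1G72660, a GTP-binding protein gene, made up the 2 measured heat acclimation genes, and both rose, by 2.16 and 2.22. The flight tubes differed by 0.63 and -0.02 in these genes (adjusted p = 0.126 and 0.976). Autophagy genes had a median of 0.35, with 0 of 11 called by limma at adjusted p of 0.121 or more, against 4.69% of all genes. Of the 11, 4 had an unadjusted p under 0.05, and 0 to 3 were called without 1 array.

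**Figure D4:**
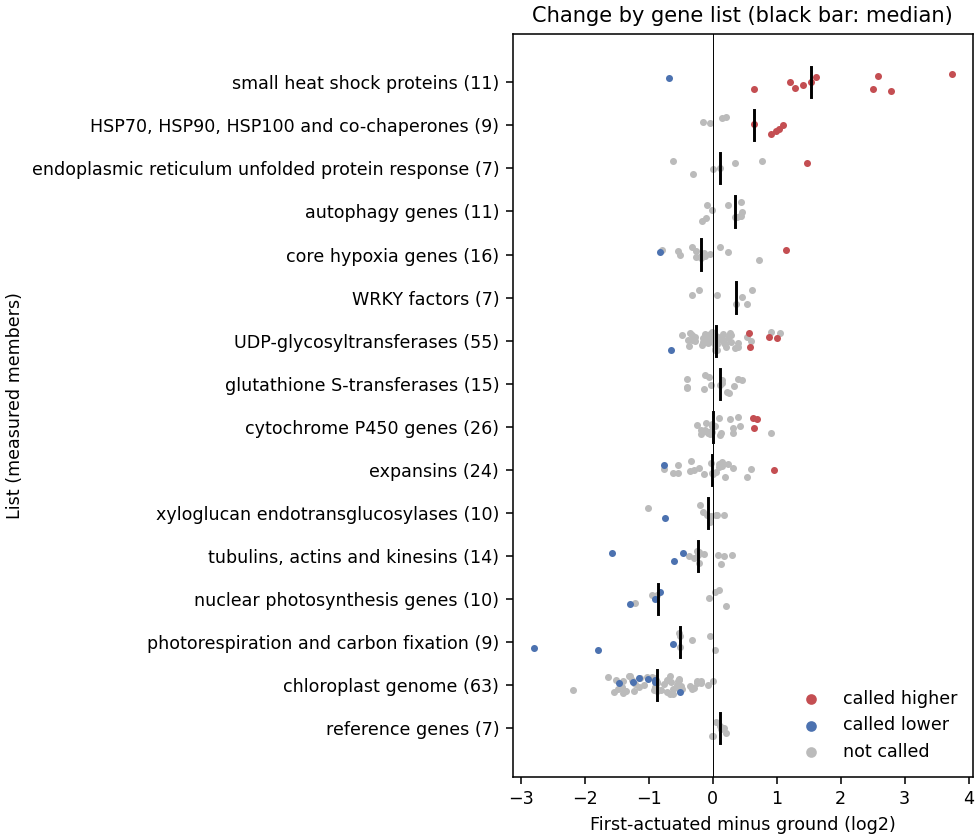
Each point is a measured gene of a list, placed by its log2 difference, first-actuated minus ground, with red for genes called higher, blue for genes called lower and grey for genes without a call, and a black bar at the list's median. Small heat shock proteins have a median of 1.54, the chloroplast genome -0.88, and the 7 reference genes lie between -0.01 and 0.20.

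Rises outside the lists, named after their values were seen, included energy and repair genes. NDB2, an alternative NADH dehydrogenase that bypasses complex I, was at 6.04, 6.22 and 5.48 on the ground and 7.24, 7.64 and 7.34 in first-actuated roots. CYTC-2, a cytochrome c gene, rose by 0.88 ± 0.09 SE and MSRB8, which repairs oxidised methionine, by 0.92 ± 0.15 SE. From the lists, GRX480, a glutaredoxin that binds TGA transcription factors, rose by 1.06, and that call was lost in 4 of the 9 fits at adjusted p of 0.0526 to 0.0725. It was the 1 of 14 thioredoxin, glutaredoxin and antioxidant genes with a call, where 3.02% of all genes rose. By limma 0 of 15 glutathione S-transferases and 0 of 9 listed peroxidases were called, against 4.69% of all genes. At an unadjusted p under 0.05 there were 3 and 2. The peroxidase list is only a part of the family, and AT1G49570, a peroxidase gene described further on as falling, is not on it.

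In the sulphate, nitrogen and beta-glucosidase lists 1 or 2 members of each were called. APS3, an ATP sulfurylase that starts sulphate assimilation, read 4.06, 3.67 and 4.09 on the ground and 5.42, 5.32 and 5.74 after microgravity (2.94-fold, adjusted p = 0.00167). Last-actuated roots were at 4.36, 3.69 and 4.24, and the flight tubes differed by 1.40 (adjusted p = 0.00781). GTR1 and GTR2, which carry glucosinolates, the sulphur-rich defence compounds of the cabbage family, rose by 0.79 and 0.67. They were 2 of 14 measured genes of the nitrogen list, and APS3 was 1 of 3 of the sulphate list, where 3.02% of all genes rose. The calls of GTR1 and GTR2 were each lost in 1 of the 9 fits. BGLU27, a beta-glucosidase gene, was near the array's floor on the ground at 1.18 to 1.70 and stood at 2.63 to 3.60 in first-actuated roots (adjusted p = 0.00212). Its relative BGLU42 fell by 0.61, a call lost in 8 of 9 fits, and the other 22 of 24 measured beta-glucosidases had none. Over all genes 3.02% rose and 1.67% fell.

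Enzymes that attach sugars to small molecules changed in a few members. Of 55 measured UDP-glycosyltransferases 4 rose and 1 fell, against 3.02% and 1.67% of all genes. Only 2 of the 5 held in all 9 fits that left out 1 array. The rises were in the UGT73B branch, which acts on flavonoids and other phenolics and was picked out after its values were seen. The remaining measured member, UGT73B1, differed by 0.07 (adjusted p = 0.861). UGT73B5 moved from 3.53, 3.94 and 4.08 to 4.57, 4.80 and 4.83, and UGT73B2 from 3.44, 3.51 and 3.44 to 4.02, 4.16 and 3.94. UGT73B3 rose by 1.01, and UGT73B4 by 0.56, and these calls were lost in 6 and 7 of 9 fits. These genes are close relatives, and whether their probes share targets was not tested. Of 264 listed cytochrome P450 genes only 26 were measured, most of them of the CYP71B subfamily. Of these 26, 3 rose, against 3.02% of all genes, and all 3 were CYP71B genes. CYP71B34 rose by 0.69 in a call that held in all 9 fits, while the calls of CYP71B6 and CYP71B23, at 0.64 and 0.63, were lost in 1 and 7. On the ground CYP71B34 read 1.79 to 1.90 and CYP71B23 2.04 to 2.08, low levels under the median of gene means, 2.15. CCR2, a cinnamoyl-CoA reductase of lignin and defence phenolics, had wide ground values of 6.12, 7.93 and 7.59 against 9.17, 9.32 and 9.39, and its call was lost in 2 of 9 fits.

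Hormone genes gave single calls, beside 3.02% of all genes called higher and 1.67% called lower. OPCL1, which activates a precursor of jasmonate for shortening in the peroxisome, rose from 4.19, 4.10 and 4.19 to 5.58, 5.47 and 5.63 and was called in all 9 fits. It was the 1 measured gene of its list. GH3.3, which joins auxin to amino acids, rose by 1.63, while the other 13 measured early auxin genes had no call. KIN1, a cold-induced gene, rose by 1.41 and the dehydrin LTI30 fell by 0.73, out of 7 measured cold and abscisic acid targets. The call of LTI30 was lost in 4 of 9 fits, at adjusted p of 0.0531 to 0.113, and that of KIN1 in 0. Gibberellin receptors (3 measured), cytokinin response regulators (8) and ethylene genes (2) had no call, and 1 gibberellin receptor alone had an unadjusted p under 0.05. SLY1, the F-box protein through which gibberellin removes its repressors, fell by 0.93 ± 0.16 SE and was named after its values were seen.

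Several regulators of transcription and protein modification moved. STZ, a zinc finger repressor of stress genes, rose from 7.64, 8.45 and 8.21 to 9.04, 9.01 and 9.08, and was higher than in last-actuated roots by 0.99 (adjusted p = 0.0231). This call against the ground was lost without each of the first-actuated arrays, at adjusted p of 0.0592 to 0.0751. SEC, an O-GlcNAc transferase that puts a sugar on nuclear proteins, and CUL4, the scaffold of a ubiquitin ligase, rose by 0.97 and 1.10, and were chosen once their values were known. WRKY factors, which switch on defence genes, had 0 of 7 called by limma, against 4.69% of all genes. In that list 4 of the 7 had an unadjusted p under 0.05, and the median was 0.37. Of these WRKY41 came nearest with a difference of 0.61 (adjusted p = 0.0639).

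Transcription factors also fell. MYBC1, a negative regulator of freezing tolerance, read 4.94, 5.18 and 5.28 on the ground and 3.93, 3.80 and 4.09 in first-actuated roots, with no overlap and a difference of -1.19 ± 0.17 SE. Last-actuated roots were at 5.46, 4.81 and 5.17, and the tubes differed by -1.21 (adjusted p = 0.00755). HYH, a bZIP factor of light signalling, fell by 0.83, a call lost without first-actuated array 3. The DREB-type factor tny, named after its values were seen, fell by 1.09 and was low in the last-actuated tube too, at 4.60 to 4.83. Of 26 measured bZIP factors 2 fell and 0 rose, against 1.67% and 3.02% of all genes, and the other fall, that of BZIP61, lost its call in 7 of 9 fits. With the replicate number as a block 1 rose and 2 fell. Of the 26, 19 lay above the median of gene means, where calls were more frequent.

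The deepest fall called in all 9 fits was that of AT1G13670, whose function is not described here. It read 5.62, 6.63 and 6.76 on the ground and 3.20, 3.85 and 3.34 in first-actuated roots (-2.88 ± 0.28 SE, adjusted p = 0.000353). Last-actuated values of 4.22 to 4.59 lay between the groups. AT4G39675 did otherwise. It was at 3.89, 4.11 and 4.18 on the ground, 2.23, 2.17 and 1.97 after microgravity, and 4.71, 4.26 and 4.39 in the last-actuated tube, and the flight tubes differed by -2.33 (adjusted p = 0.00013).

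Some cell wall and secreted enzyme genes fell. AT1G49570, a class III peroxidase, a secreted enzyme that cross-links or loosens the wall, fell from 5.19, 5.20 and 5.03 to 3.73, 3.75 and 3.75 (2.63-fold, adjusted p = 0.000618). In the last-actuated tube it stood at 4.73, 5.23 and 5.35, apart from the first-actuated arrays by -1.36 (adjusted p = 0.0035). AT3G54400, an aspartyl protease gene, fell 2.57-fold. COB, which guides oriented cellulose deposition in growing root cells, fell from 8.86, 9.04 and 8.75 to 8.18, 8.28 and 8.31. It was the 1 of 11 measured wall polysaccharide genes with a call, where 1.67% of all genes fell. EXLA1, an expansin-like gene, fell by 0.76 and XTH32, a wall-remodelling enzyme gene, by 0.74, the latter a call lost in 2 of 9 fits. Among 24 expansins 1 rose and 1 fell, and among 10 xyloglucan enzymes 1 fell, against 3.02% higher and 1.67% lower of all genes, so the expansin counts lie near that background.

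**Figure D5:**
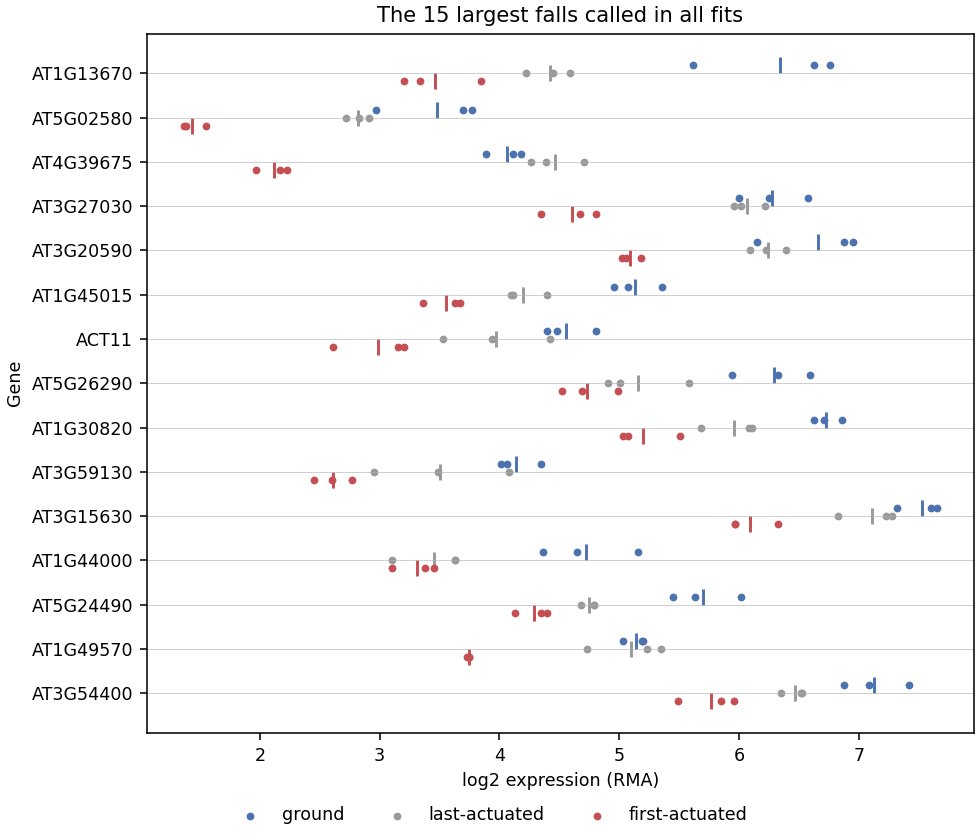
Log2 expression on each of the 9 arrays for the 15 largest falls called in all 9 fits that left out 1 array, with blue for ground, grey for last-actuated and red for first-actuated arrays, and a vertical tick at each group mean. The first-actuated points lie below the ground points in every gene, and for AT4G39675 all grey points lie above the blue ones, while for AT1G49570 they run from 4.73 to 5.35, around the blue ones.

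Of 14 measured tubulin, actin and kinesin genes 3 fell and 0 rose, against 1.67% and 3.02% of all genes, and their median was -0.22. With the replicate number as a block 1 fell. Of the 14, 12 lay above the median of gene means, where calls were more frequent. ACT11, an actin gene, read 4.48, 4.40 and 4.81 on the ground and 3.20, 2.61 and 3.15 in first-actuated roots, a 2.97-fold fall. KINESIN-12B, a motor of the dividing cell's plate, fell by 0.46 and KINESIN-13A, which shortens microtubules, by 0.60, but these calls were lost in 5 and 7 of 9 fits. AT1G30820, a CTP synthase that makes a building block of RNA and DNA, fell from 6.71, 6.86 and 6.63 to 5.03, 5.51 and 5.07. Histones (7 measured) and cell cycle genes (5) had no call by limma and 0 at an unadjusted p under 0.05, while TSO1, a cell division regulator named after its values were seen, fell by 0.71.

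Signals and small defence proteins changed in single members, beside 3.02% of all genes called higher and 1.67% called lower. RALFL32, a secreted peptide of a family that alkalinises the apoplast, fell by 1.34, a call lost in 5 of 9 fits, and the other 41 measured peptide genes had none. The defensin PDF2.5 read 6.23, 6.57 and 6.22 on the ground and 5.55, 4.48 and 5.19 after microgravity, and 2 of 9 fits lost its call. Of 78 measured pathogenesis-related and defensin genes 2 fell and 1 rose. The other fall, that of LCR68 by 0.52, lost its call in 8 of 9 fits. NHL25 was near the array's floor on the ground at 1.16 to 1.85 and stood at 2.47 to 2.49 in first-actuated roots. That rise was called in all 9 fits. XERICO, a RING ligase that raises abscisic acid, fell from 4.25, 4.69 and 4.36 to 3.25, 3.78 and 3.56. GLR3.3, a glutamate receptor-like channel of calcium waves, fell by 0.42. It was the 1 call among 10 measured channel genes, where 1.67% of all genes fell, and 5 of 9 fits lost it. Of 7 calmodulin-like genes 0 were called by limma, against 4.69% of all genes. An unadjusted p under 0.05 was found for 3, with CML37 at a difference of 0.54 (adjusted p = 0.0542). NAI2, which builds the endoplasmic reticulum bodies that store defensive enzymes, fell by 0.80 ± 0.11 SE, and was named after its values were seen.

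Plastid-related falls depended on which ground arrays were used. Of 63 measured chloroplast-encoded genes, 62 had a negative difference, with a median of -0.88. Past the threshold 7 fell, against 1.67% of all genes. Without ground array 2 there were 52, and 1 in each of the other 8 fits that left out an array, where psbM was called every time. Some nuclear plastid genes were called in every fit. AT1G44000, a STAY-GREEN-LIKE gene of chlorophyll breakdown, was at 5.16, 4.36 and 4.65 on the ground and 3.10, 3.38 and 3.45 in first-actuated roots, and its call held in all 9 fits. AT5G24490, annotated as a plastid ribosomal protein gene, fell 2.65-fold and its call held too. Of 10 nuclear photosynthesis genes 3 fell, against the same 1.67% of all genes, and 0 to 4 did so without 1 array. AT3G47650, whose product helps assemble Rubisco, read 8.83, 5.47 and 7.73 on the ground and 4.81, 4.71 and 4.12 in first-actuated roots, and its call was lost in 8 of 9 fits. It was 1 of 3 falls among 9 measured genes of photorespiration and carbon fixation, again against 1.67% of all genes.

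Some of the largest differences were not called. A difference of at least 2 on the log2 scale without a call was found for 12 genes. All 12 had lower levels in first-actuated roots, and in 12 of 12 ground array 2 read lower than ground arrays 1 and 3. Their medians on the ground arrays were 6.48, 1.67 and 5.4, against 1.95, 1.84 and 1.86 in first-actuated roots. Without a call, 91 genes were lower by at least 1 on this scale and 13 higher. Ground array 2 was the lowest ground array in 87 of the 91, and 82 of the 91 were called without it. Of the 91 genes 20 were chloroplast-encoded.

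Several of those genes are known from seeds and germination, and they were chosen once their values were known. ICL, isocitrate lyase of the glyoxylate cycle that turns seed oil into sugar, read 10.97, 5.44 and 10.17 on the ground and 4.54, 4.24 and 4.72 in first-actuated roots (adjusted p = 0.169). In the last-actuated tube it read 9.58, 4.36 and 9.22, so 4 of the 9 arrays were high and 5 low. AtLEA4-1, a late embryogenesis abundant protein gene, read 6.40, 1.76 and 5.50 on the ground and 2.13, 1.79 and 1.91 in first-actuated roots. The LEA genes M17 and AT2G21490 and the seed storage protein gene PAP85 had the same order on the ground arrays. PAP85 stood at 5.50, 2.13 and 3.84 there and at 2.24, 2.24 and 2.57 in first-actuated roots. PORB, an enzyme of chlorophyll synthesis in greening tissue, read 5.44, 2.25 and 3.61 against 2.22, 2.13 and 1.71. The part of seed, embryo or green tissue RNA in the ground values was not tested.

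The markers of cell types gave few measured genes, set here beside 3.02% of all genes called higher and 1.67% called lower. Of the root identity list 2 were measured and both were lower, AT1G12080 by 1.30 (adjusted p = 0.0132, a call lost in 4 of 9 fits) and AT5G17390 with a difference of -0.56 (adjusted p = 0.0909). Their log2 values, added up on each array, ran from 7.41 to 7.57 on the ground and 5.28 to 6.25 in first-actuated roots. Such sums of log2 values, given for the other marker lists too, are not total levels of marker RNA. Root hair genes (4 measured) summed to 17.1 to 19.5 and 16.4 to 17.8. They split, since EXPA18 rose by 0.96 while GH9C1, an endoglucanase of root hairs, fell by 1.25, and both calls were lost in 4 of 9 fits. Columella and root cap genes (5) summed to 13.2 to 14 and 13 to 13.5 with no call. Endodermis genes (2) gave 1 rise, AT1G71740, and 1 fall, GSO1, a receptor kinase of the Casparian strip, with calls lost in 4 and 6 of 9 fits.

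Meristem genes (2) summed to 6.94 to 8.01 on the ground and 7.13 to 7.78 in first-actuated roots with no call, and no xylem or phloem marker was measured. Shoot and leaf genes (6) summed to 18.6 to 21 on the ground and 18 to 18.8 after microgravity. Of these LHB1B2, a light-harvesting protein gene, fell by 0.91, a call lost in 5 of 9 fits, and SPCH, a stomatal lineage factor, differed by -0.66 (adjusted p = 0.0548). The part of these marker genes in the other falls was not tested. The 7 reference genes, GAPC2 and others, differed by -0.01 to 0.20 with 0 calls.

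Neighbouring genes sometimes moved together. Among 10250 pairs of adjacent protein-coding genes that were both measured, 23 had both members higher and 7 both lower, while 3 pairs went opposite ways. Of the neighbours of genes that rose, 7.8% had risen too, against 2.88% of all neighbours. HSA32 and AT4G21323, a subtilase gene next to it, rose by 2.16 and 1.78, and AT1G52560 and AT1G52565 by 3.74 and 0.94. AT1G14640 and AT1G14642 rose by 1.61 and 2.35. These pairs were chosen after their values were seen. For falls the shares were 4.15% and 1.64%, and AT5G26290, of the TRAF-like family, fell together with its neighbour AT5G26280, chosen likewise, by 1.55 and 0.70. Pairs can be relatives such as UGT73B2 and UGT73B3, and whether probes of neighbours overlap was not tested.

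The first-actuated tube was also set against the last-actuated one, to show where the values just given differ between flight tubes. In that contrast 1.26% of all genes were higher and 0.985% lower in the first-actuated tube. Of the 499 genes called higher against the ground, 169 were also higher than in the last-actuated tube and 330 had no call there. Of the 277 called lower, 77 were also lower and 200 had no call. Among genes already described, BGLU27 was higher by 1.58 (adjusted p = 0.00804) and PUB24 by 1.39 (adjusted p = 0.0175), with last-actuated values inside or near the ground range. AT4G27450, a gene induced by low oxygen, read 7.81, 7.71 and 7.93 on the ground, 6.92, 7.21 and 6.86 in first-actuated roots and 8.14, 7.81 and 8.05 in last-actuated roots (adjusted p = 0.00605 between the flight tubes). AT3G03270, a universal stress protein gene of the same list of 16, rose by 1.15, and the tubes differed by 0.49 (adjusted p = 0.0608). Against the ground 1 of the 16 rose and 1 fell, where 3.02% and 1.67% of all genes did. Their median was -0.19, and 12 of the 16 had a negative difference. Both comparisons share the first-actuated arrays, so these values are not independent of the rises and falls against the ground.

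When all 38408 probe sets of the table were tested, 1306 were called, 3.4% of them, with 833 higher and 473 lower. Most of the added probe sets carried no gene name in the sources used here. The first 20 of the table are among them and were higher in all first-actuated arrays. Whether they are controls of labelling or hybridization is not known here, and their part in the differences between groups was not tested.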

How the data were processed

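Whole-root RNA from 9 samples was hybridized to 1-colour AraGene arrays, and the deposited values are log2 expression values that the authors made by RMA. R 4.0.0, the packages oligo and limma, and TAIR10 appear in the submitters' processing notes, and other steps are not given there. Values ran from 0.0515 to 13.81 with array medians of 2.095 to 2.152. No detection calls were used, and the number of arrays limits the precision.

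Of 38408 probe sets, 16722 had 1 gene name, 759 several and 20927 none. The former gave 16550 genes, 16574 of their probe sets matching the gene table and 148 not. Where a gene had several probe sets (146 genes), the brightest on average was taken. The gene table is of another release, so it gave names, chromosomes and neighbours only.

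A model of the 3 groups was fitted to all 9 arrays with limma 3.58.1 (statmod 1.5.0) in R 4.3.3, moderated by empirical Bayes (6 residual degrees of freedom, 3.89 prior), and p-values were adjusted over all genes by the Benjamini-Hochberg method. The fit was tested on simulated data. Tables and figures used Python 3.11.15, pandas 2.3.3 and matplotlib 3.10.9.

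Named genes are the 15 largest rises and falls called in the main fit and in each of 9 fits without 1 array, and the called members of a list with the smallest p, at most 4, or otherwise 1 uncalled member. Others are said to be named after their values were seen. Not every gene that the rule names is printed. Members, lists and tests were chosen with earlier results of these data known. Some members that matched a list by a shared name only were removed after values were seen. Others, such as PDF1A and PDF1B in the defensin list, remained. Same-numbered arrays of different groups had correlations of deviations from -0.106 to 0.0698, so the numbers were not taken to pair samples. Alternatives were 2 other normalizations, 2 filters on low levels, trend, robust moderation, array weights, a fit to 6 arrays, the replicate block, a mean over a gene's probe sets, the whole table of probe sets, a threshold of 0.01 and fits without each array. Promoter motifs and protein lengths were not analysed here.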

Additional observations from a re-analysis of the deposited data

Results flagged for a closer look

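Among probe sets with no gene name in the sources used here, which the comparison did not use, the 3 with the largest rises were 13490539, 13320009 and 13426132. Probe set 13490539 read 4.72, 4.20 and 3.46 on the ground arrays and 9.35, 9.34 and 9.42 on the first-actuated arrays, a log2 difference of 5.24, and 8.44 to 8.46 on the last-actuated arrays. Probe set 13426132 differed by 4.01 and was at 7.37 to 7.50 in the last-actuated tube. Probe set 13320009 differed by 4.41, and stood at 4.20 to 5.00 there.

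Probe set 13320009 belongs to the first 20 probe sets of the table, which hold 10 distinct patterns of values. In 10 of the 10 every first-actuated array lay above all ground and all last-actuated arrays, and the median difference over the 10 was 2.96 on the log2 scale. The 9 called higher (limma, Benjamini-Hochberg over all probe sets) differed by 2.25 to 4.41, and the 1 without a call by 1.24 (adjusted p = 0.153). The sources used here do not say what these probe sets measure. Whether they are controls of labelling or hybridization is not given there, and their part in the differences between the groups was not tested.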

How the results depend on the processing

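The calls between first-actuated and ground roots numbered 776 (499 higher and 277 lower). They numbered 419 (287 and 132) when only the 6 arrays of both groups were fitted, 1306 (833 and 473) over all probe sets and 327 (245 and 82) at an adjusted p under 0.01. The falls numbered 421 among genes above the median of gene means and 422 with array weights. Without 1 array in turn the total ran from 384 to 1253, the rises from 275 to 717 and the falls from 109 to 536, and the array whose removal raised the counts was ground array 2. The other settings moved the counts by less than 1.5 times. With the replicate number as a block there were 700 calls (471 and 229), and as the numbers share no known source this pairing is no part of the design. Of 115 named genes with a call, 77 were called without each array in turn, 10 lost the call with the block, 32 lost it in the fit to 6 arrays, and 0 changed direction under any of these settings. The cause of these changes was not tested, and some of the fits also had fewer arrays. Genes near the array's floor gave few calls, so low levels limit what can be seen.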
